A study of Homo sapiens with 6 samples.

Results

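Among the 770 genes on the panel, 6 of the oxygen-sensing pathway were followed in ovarian cancer cells grown sparsely or crowded. They were picked by symbol, with earlier results of these data known. The first is EPAS1, which encodes the transcription factor HIF-2 alpha. The others are the oxygen sensor gene EGLN3, the elongin genes TCEB1 and TCEB2, and the target genes PDK1 and NDRG1. All 6 passed the floor on low values. The samples came from NIH:OVCAR-3, an established human cell line of serous ovarian cancer, kept for 1 week at low density (3 samples) or at high density (3 samples) in medium with 20% FBS and insulin. No drug is named for either group, and the number of cells seeded set the density. An nCounter PanCancer Progression Panel, which counts a fluorescent barcode for each captured RNA molecule, was run on 100 ng of total RNA per sample. The medium density of the design was not analysed here. The question addressed was how expression depended on cell density, here for the factor and sensors of the pathway against its targets.

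Hypoxia-inducible factors (HIFs) are pairs of an unstable alpha subunit, HIF-1 alpha or HIF-2 alpha, with a stable beta subunit. When oxygen is plentiful, prolyl hydroxylases of the EGLN family hydroxylate the alpha subunit, which is then bound by the VHL protein, ubiquitinated and degraded. VHL works within an E3 ligase that also holds elongin B, elongin C, a cullin and the RING protein RBX1. When oxygen is scarce, the alpha subunit persists and turns on genes of glycolysis, vessel growth and pH control, among them PDK1, NDRG1 and EGLN3 itself. Because this control acts mainly on the protein, an RNA level does not report how much HIF-2 alpha is active.

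Recovered barcode counts over the 770 genes totaled 658422 to 696309 in the low density samples and 554857 to 683341 in the high density samples. Values are normalized counts, barcode counts scaled to 30 reference genes in each sample. Over the 480 tested genes, the chi-square per gene between replicates was 1.12 to 2.01. Low density replicates 1 and 2 were the closest pair. A chi-square test of their counts gave p = 0.0330 over the 480 tested genes, but p = 0.132, within sampling noise, over the 709 genes with more than 10 counts in that pair. They were kept as separate samples, and the fit that averaged both as 1 sample is given beside the results. Separate cultures are not named in the labels, and the p-values therefore cover the spread among these samples alone, part of which may be technical. All 7 epithelial markers measured were above the floor of 20, and 6 of them were lower at low density, all but EPCAM (2915 to 3119 in low density samples, 3042 to 3147 in high density samples). Of the leukocyte markers 2 of 3, and of the fibroblast markers 9 of 10, were under the floor. The remaining fibroblast marker, COL1A1, rose at low density (35.6 ± 5.11 normalized counts, against 23.6 ± 4.15 at high density; adjusted p = 0.0123 in limma). This call was lost in the methods' t-test (adjusted p = 0.0664) and passed in 13 of 18 other settings. Among the fibroblast markers under the floor, which were not tested, FAP went the other way. It had 8.72 ± 0.675 normalized counts at low density, against 19.8 ± 2.04 at high density. The part of these markers in the results was not tested.

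EPAS1, EGLN3 and TCEB1 were higher at low than at high density, PDK1 and NDRG1 were lower, and TCEB2 did not pass the test. These calls came from limma on log2(value + 1), fitted over all 480 tested genes with Benjamini-Hochberg adjustment. EPAS1 was 2.27-fold, EGLN3 1.75-fold and TCEB1 1.34-fold as high at low density as at high density. PDK1 and NDRG1 were 0.572-fold and 0.563-fold as high. Density moved much of this panel, with 66.2% of the tested genes called (38.8% higher and 27.5% lower at low density), so 5 calls among 6 genes are to be read against that background. The groups did not overlap for any of the 6 genes, nor for 66.0% of the tested genes. The methods' t-test called 55.0% and edgeR on recovered counts 68.1% of the tested genes, and both called the same 5 of the 6.

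**Figure D1:**
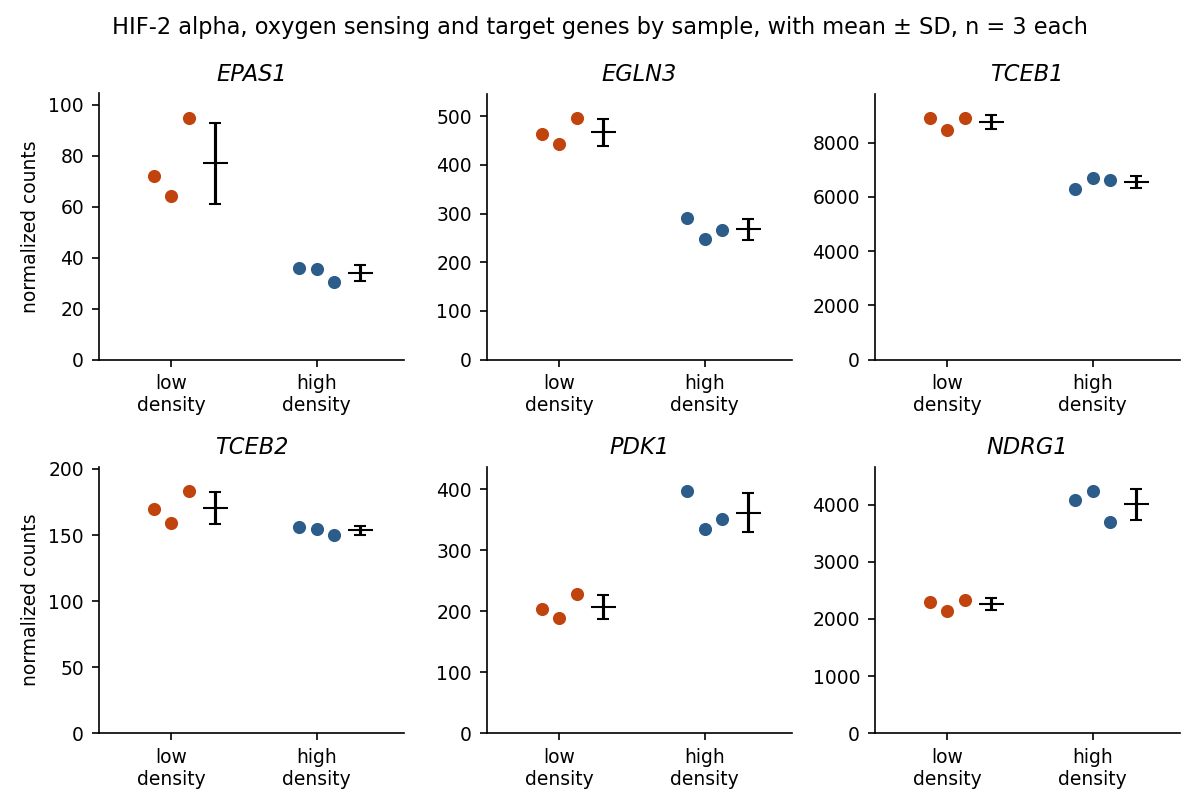
Normalized counts of the 6 genes in each sample (points, low density left, high density right), with the mean and SD of each group (n = 3) beside them. The vertical axes start at 0 and differ between panels. The 3 low density samples of EPAS1 lie between 64.3 and 94.9, above all 3 high density samples, whereas those of NDRG1 lie between 2140 and 2337, below all 3.

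EPAS1 encodes HIF-2 alpha, the subunit best known from endothelial cells and from kidney cancer that has lost VHL. It read 71.9, 64.3 and 94.9 normalized counts in low density replicates 1 to 3, against 35.9, 35.6 and 30.5 in high density replicates 1 to 3. The groups did not overlap, and low density replicate 3 stood above the other two of its group. The log2 fold change was 1.14 ± 0.17 (SE; adjusted p = 1.3e-10 in limma, 0.00896 in the methods' t-test), the 23rd largest rise of the 480. EPAS1 rested on the fewest counts of the 6, with 72 to 101 recovered counts per low density sample and 25 to 36 per high density sample. All 6 samples nevertheless lay above their background limit, the mean of the negative controls plus 2 SD, which averaged 14.3 normalized counts at low and 15.7 at high density. With the negative control mean subtracted, the log2 difference was 1.41. Without low density replicate 3 it was 0.98.

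Endothelial cells carry much EPAS1. Of a chosen list of endothelial markers, 6 were on the panel. Among these, 5 (PECAM1, TEK, TIE1, ROBO4 and EMCN) had means under the floor of 20. The summed level of all 6 ranged from 72.9 to 88.4 in low density samples and from 75.4 to 104 in high density samples. The sixth, MMRN2, did not pass the test (log2 fold change 0.22 ± 0.19, adjusted p = 0.298 in limma). Other genes known from endothelial cells, outside that list, were above the floor. S1PR1 rose, with 42.1 ± 3.95 normalized counts at low density, against 26.4 ± 5.25 at high density (adjusted p = 0.00199 in limma). KDR fell, with 26.9 ± 7.10 at low density, against 38.4 ± 2.18 at high density (adjusted p = 0.0172 in limma). NOS3, EGFL7 and CALCRL did not pass. The part of these genes in the EPAS1 result was not tested.

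EGLN3 encodes the prolyl hydroxylase PHD3, which marks HIF alpha subunits for VHL and is itself a HIF target. It read 463, 442 and 497 normalized counts in the low density samples, against 290, 247 and 266 in the high density samples. The lowest low density sample was above the highest high density sample. The log2 fold change was 0.80 ± 0.07 (SE; adjusted p = 4.4e-25 in limma, 0.00283 in the methods' t-test).

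TCEB1 and TCEB2, now named ELOC and ELOB, encode elongin C and elongin B, which form a dimer and join VHL to the cullin. TCEB1 read 8918, 8468 and 8889 normalized counts at low density, against 6277, 6681 and 6638 at high density. Its samples varied by 2.88% at low and 3.39% at high density (coefficient of variation), and its log2 fold change was 0.42 ± 0.03 (SE; adjusted p = 1.3e-30 in limma, 0.00194 in the methods' t-test). TCEB2 read 170, 159 and 183 normalized counts at low density, against 156, 155 and 150 at high density. The lowest low density sample thus lay just above the highest high density sample, by less than the counting noise of a single sample (7.40% at low and 8.37% at high density). The log2 fold change of TCEB2 was 0.15 ± 0.10 (SE; adjusted p = 0.188 in limma), with a 95% interval of -0.05 to 0.35, so a rise of the size seen for TCEB1 lies outside the interval. With scaling to the positive control probes, which raised the median tested gene by 0.15 on the log2 scale, TCEB2 did pass (0.29, adjusted p = 0.0105 in limma).

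PDK1 encodes pyruvate dehydrogenase kinase, which keeps pyruvate out of the mitochondrial citrate cycle and is a textbook HIF-1 target. It read 203, 188 and 227 normalized counts at low density, against 397, 335 and 351 at high density. No low density sample came near the high density range. PDK1 fell by 0.80 ± 0.08 on the log2 scale (SE; adjusted p = 1.3e-20 in limma, 0.00548 in the methods' t-test).

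NDRG1, a stress-responsive gene induced by hypoxia and by loss of iron, was lower at low density. It read 2291, 2140 and 2337 normalized counts at low density, against 4084, 4238 and 3707 at high density. High density replicate 3 was the lowest of its group, yet above every low density sample. NDRG1 fell by 0.83 ± 0.04 on the log2 scale (SE; adjusted p = 1.7e-71 in limma, 0.00165 in the methods' t-test), the 27th largest fall of the 480.

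Low density replicate 2 had the lowest value of its group for all 6 genes, and low density replicate 3 the highest for 5 of them. A factor shared by the genes of a sample largely cancels in the ratio of 2 genes within the sample. The ratios were taken on value + 1, so for weak genes they still depended somewhat on the scaling and on the added count. The log2 ratio of EGLN3 to PDK1 was 1.19, 1.23 and 1.12 in the low density samples and -0.45, -0.44 and -0.40 in the high density samples. The groups were far apart, although the sign of a ratio between different probes carries no meaning of its own. The ratio was 3.05-fold higher at low density (difference 1.61 on the log2 scale). Its SD was 0.05 at low and 0.03 at high density.

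Against NDRG1, the log2 ratio of EGLN3 was 1.63 higher at low density. The ratio of EPAS1 differed most, by 1.95 against PDK1 (3.85-fold) and 1.97 against NDRG1 (3.92-fold), or by 1.75 and 1.80 with 10 added in place of 1. For TCEB1 the differences were 1.23 and 1.25, and for TCEB2, which did not pass by itself, 0.95 and 0.98. Each difference equals the log2 fold change of the upper gene minus that of the target gene, so the ratios restate those fold changes. Because both targets were known to fall, a higher ratio at low density was given in advance for any gene that rose. The TCEB2 differences came mostly from the falls of PDK1 (-0.80) and NDRG1 (-0.83), against 0.15 for TCEB2 itself. In all 8 ratios the 3 low density samples lay above the 3 high density samples, with gaps of 0.80 to 1.76 on the log2 scale. The two-sided exact permutation test gave p = 0.1 for each, also after adjustment over the 8, which is the smallest p that 3 samples against 3 allow.

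**Figure D2:**
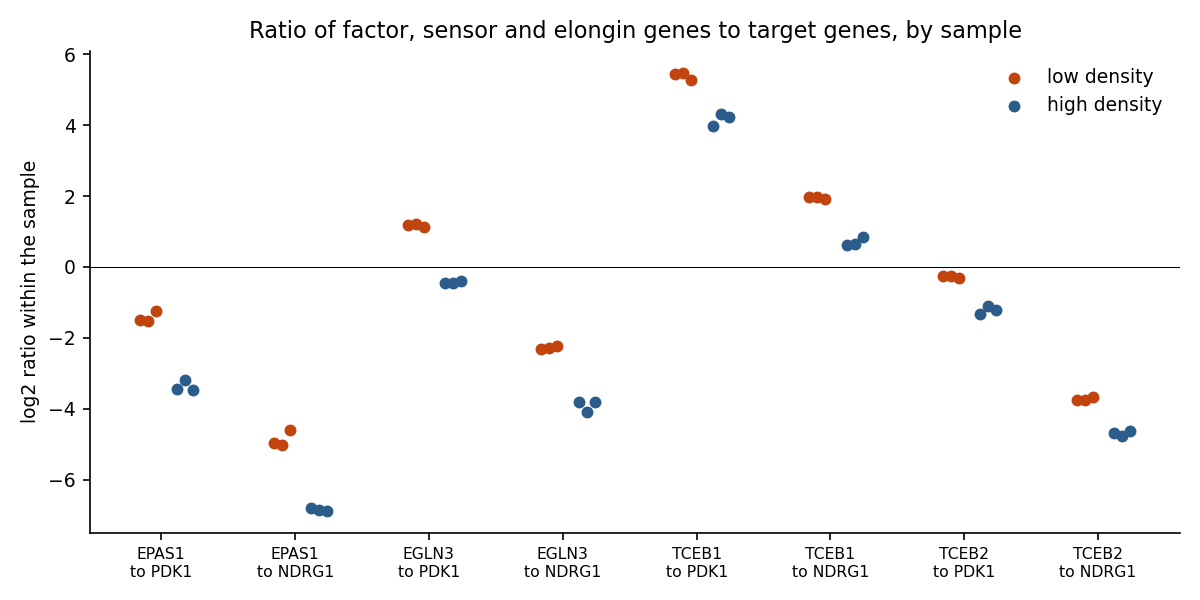
Log2 ratio of each factor, sensor or elongin gene to each target gene within a sample (vertical axis), for the 3 low density samples (left of each pair) and the 3 high density samples (right). The low density samples lie higher in all 8 ratios, by 0.95 (TCEB2 to PDK1) to 1.97 (EPAS1 to NDRG1) on the log2 scale.

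The direction of each of the 6 genes was the same in all 19 other settings tried. EPAS1, EGLN3, TCEB1, PDK1 and NDRG1 passed in 19 of 19, and TCEB2 in 1 of 19. The largest movements came with the scaling and, for EPAS1, with subtraction of background. EPAS1 ranged from 0.95 to 1.41 on the log2 scale, EGLN3 from 0.71 to 0.95, TCEB1 from 0.36 to 0.57, TCEB2 from 0.05 (quantile normalization) to 0.29, PDK1 from -0.94 to -0.66 and NDRG1 from -0.89 to -0.68. Without low density replicate 3, the difference of TCEB2 was 0.10, against 0.15 with all samples. With low density replicates 1 and 2 averaged as 1 sample, the differences were 1.22 for EPAS1, 0.83 for EGLN3, 0.43 for TCEB1, 0.17 for TCEB2, -0.77 for PDK1 and -0.81 for NDRG1, and the calls were the same.

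**Figure D3:**
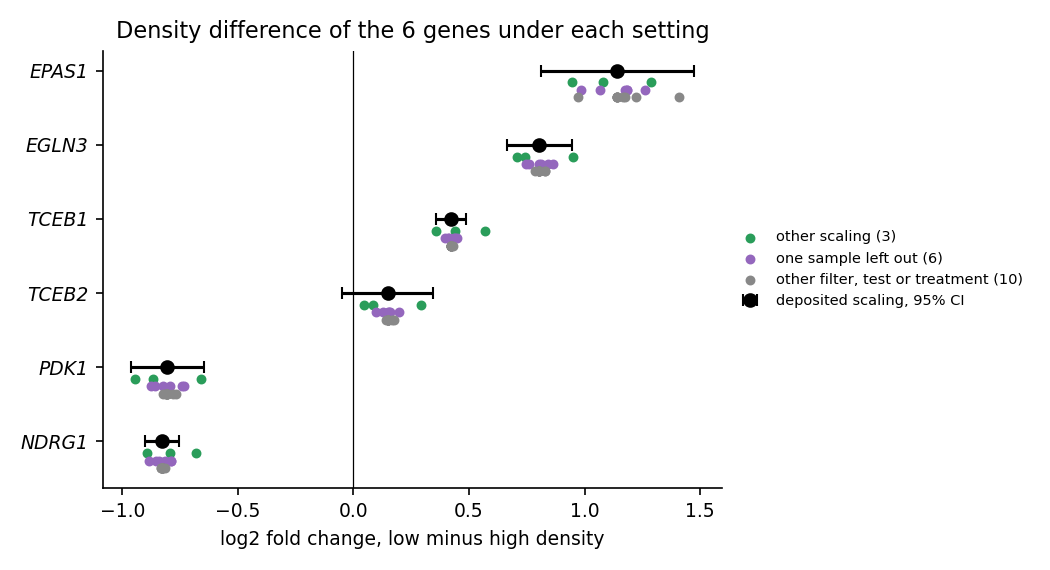
Log2 fold change, low minus high density (horizontal axis), of the 6 genes under the deposited scaling (black, with the 95% confidence interval) and under 19 other settings (colored points, grouped by kind). All points of EPAS1, EGLN3 and TCEB1 lie right of 0 and all points of PDK1 and NDRG1 left of it; the interval of TCEB2 (-0.05 to 0.35) spans 0.

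HIFs bind a short core motif, ACGTG or GCGTG, near target genes. Both motifs were searched on both strands in promoter windows running from 250 bases before to 50 bases after annotated starts (RefSeq, GRCh38.p14). Windows of 4 of the 6 genes were used. Of 35116 such windows, 48.4% held at least 1 match and 23.1% at least 2. Windows of 1 gene that rose without being a classic HIF target (EPAS1), 1 target that rose (EGLN3) and 1 target that fell (PDK1) are printed 5′ to 3′, with matches in capitals. They lie at chr2:46297157-46297456 (plus strand), chr14:33951025-33951324 (minus strand) and chr2:172555840-172556139 (plus strand).
EPAS1: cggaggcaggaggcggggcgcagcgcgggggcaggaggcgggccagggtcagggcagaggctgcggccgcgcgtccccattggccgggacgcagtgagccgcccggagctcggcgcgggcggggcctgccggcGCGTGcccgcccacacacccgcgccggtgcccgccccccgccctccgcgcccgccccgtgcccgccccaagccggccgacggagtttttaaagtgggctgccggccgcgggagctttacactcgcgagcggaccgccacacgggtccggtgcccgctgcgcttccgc
EGLN3: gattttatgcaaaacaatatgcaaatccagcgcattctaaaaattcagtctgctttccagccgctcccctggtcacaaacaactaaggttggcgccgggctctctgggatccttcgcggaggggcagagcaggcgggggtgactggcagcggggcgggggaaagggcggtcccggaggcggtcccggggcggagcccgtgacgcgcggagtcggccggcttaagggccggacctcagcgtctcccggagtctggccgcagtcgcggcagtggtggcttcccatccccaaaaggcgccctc
PDK1: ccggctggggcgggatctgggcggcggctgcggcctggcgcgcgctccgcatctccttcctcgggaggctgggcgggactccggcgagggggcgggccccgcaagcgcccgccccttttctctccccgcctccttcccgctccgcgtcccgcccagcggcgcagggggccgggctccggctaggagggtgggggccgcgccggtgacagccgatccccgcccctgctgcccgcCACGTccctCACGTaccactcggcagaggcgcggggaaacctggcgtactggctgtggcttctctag
The PDK1 window held 2 matches, both ACGTG on the minus strand, starting 17 and 8 bases before the start site. The EPAS1 window held 1 GCGTG, 117 bases before the start, and the EGLN3 window none. RefSeq lists another PDK1 start upstream, whose window held none, and the TCEB2 window held 2. A match describes the letters only, and enhancers or introns outside the windows were not searched. The promoters of TCEB1 and NDRG1 are not shown.

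Of 10 tested genes for HIF factors, oxygen sensing and VHL ligase, the 4 of the 6 chosen genes included, 6 rose, 1 fell and 3 did not pass. Their median log2 fold change was 0.28, against 0.04 over all 480 tested genes, of which 66.2% were called. Without the chosen genes, 3 of 6 rose, 1 fell and 2 did not pass (median 0.23), so the share called gives no result about the list. HIF1A, which encodes HIF-1 alpha, read 3508, 3542 and 3545 normalized counts at low density, against 2886, 2813 and 2854 at high density, and rose by 0.31 ± 0.04 (SE; 95% interval 0.24 to 0.38). The interval of EPAS1 (0.81 to 1.47) lay wholly above it. EGLN2, another HIF prolyl hydroxylase, rose by 0.24 ± 0.06 and RBX1, the RING protein of the ligase, by 0.55 ± 0.04. VHL alone fell, with 1203, 1276 and 1256 normalized counts at low density against 1363, 1449 and 1359 in high density samples (-0.16 ± 0.04 on the log2 scale, adjusted p = 8.5e-04 in limma). Scaled to the positive controls, VHL no longer passed (-0.01, adjusted p = 0.861 in limma), and 8 of the 10 rose while none fell. EGLN2 did not pass after quantile normalization (0.11, adjusted p = 0.0790 in limma). The coactivator genes CREBBP and EP300 did not pass. ARNT and EGLN1 were not analysed here.

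Of 11 tested genes of glucose and energy metabolism that HIFs are known to induce, PDK1 included, 3 rose, 4 fell and 4 did not pass (median log2 fold change -0.09). The share called was near that of all tested genes (66.2%, with 38.8% higher and 27.5% lower). Without PDK1, 3 rose and 3 fell (median -0.02). ENO2, a form of enolase, rose by 0.71 ± 0.16 and GPI, glucose-6-phosphate isomerase, by 0.54 ± 0.04, with 2351, 2226 and 2355 normalized counts at low density against 1635, 1638 and 1486 at high density. LDHA, lactate dehydrogenase, had 13387 to 13898 normalized counts in low density samples and 14458 to 15815 in high density samples and fell by 0.13 ± 0.03, a call lost in 4 of 19 other settings. The glucose transporter gene SLC2A1 read 265, 238 and 223 normalized counts at low density, against 260, 256 and 252 at high density, so the groups overlapped and it did not pass (log2 fold change -0.09 ± 0.08, adjusted p = 0.365 in limma). Hexokinase HK2 (-0.39 ± 0.05) and phosphoglycerate kinase PGK1 (-0.21 ± 0.03) fell, and pyruvate kinase PKM rose by 0.08 ± 0.03. PGK1 did not pass in 2 and PKM in 5 of the 19 other settings. PDK1 had the lowest estimate of the 11. Positive control scaling turned the counts to 5 higher and 2 lower.

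The panel held 13 HIF targets of growth, vessels and stress. Among the 7 tested, 2 rose and 3 fell, and the other 2 did not pass (median log2 fold change -0.24). They include EGLN3 and NDRG1, without which 1 rose, 2 fell and 2 did not pass. This share, too, was near the 66.2% called over all tested genes. VEGFA, the vessel growth factor, read 614, 576 and 666 normalized counts at low density, against 1274, 1194 and 1215 at high density, and fell by 0.99 ± 0.05 (SE; adjusted p = 1.1e-60 in limma). EDN1, endothelin, read 35.0, 48.2 and 47.9 at low density, against 70.7, 54.4 and 76.8 in high density samples (-0.61 ± 0.16 on the log2 scale), a call lost in the methods' t-test (adjusted p = 0.0736). PLAUR, the urokinase receptor, was higher at low density (25.9 ± 2.50 normalized counts, against 14.5 ± 2.30 at high density). Its adjusted p was 0.00323 in limma and 0.052 in DESeq2. The log2 fold change was 0.80 ± 0.25 (SE), with a 95% interval of 0.30 to 1.30. Its mean at high density lay under the background limit of 15.7, and recovered counts were only 12 to 30 per sample, so the size of this rise is uncertain. Of 4 tested targets of matrix and invasion, 1 was called, against 66.2% of all tested genes. That gene, the receptor gene MET, rose, with 132, 139 and 148 normalized counts at low density against 67.7, 61.7 and 71.9 at high density (log2 fold change 1.05 ± 0.13). The other 3, LOX, LOXL2 and TWIST1, did not pass.

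**Figure D4:**
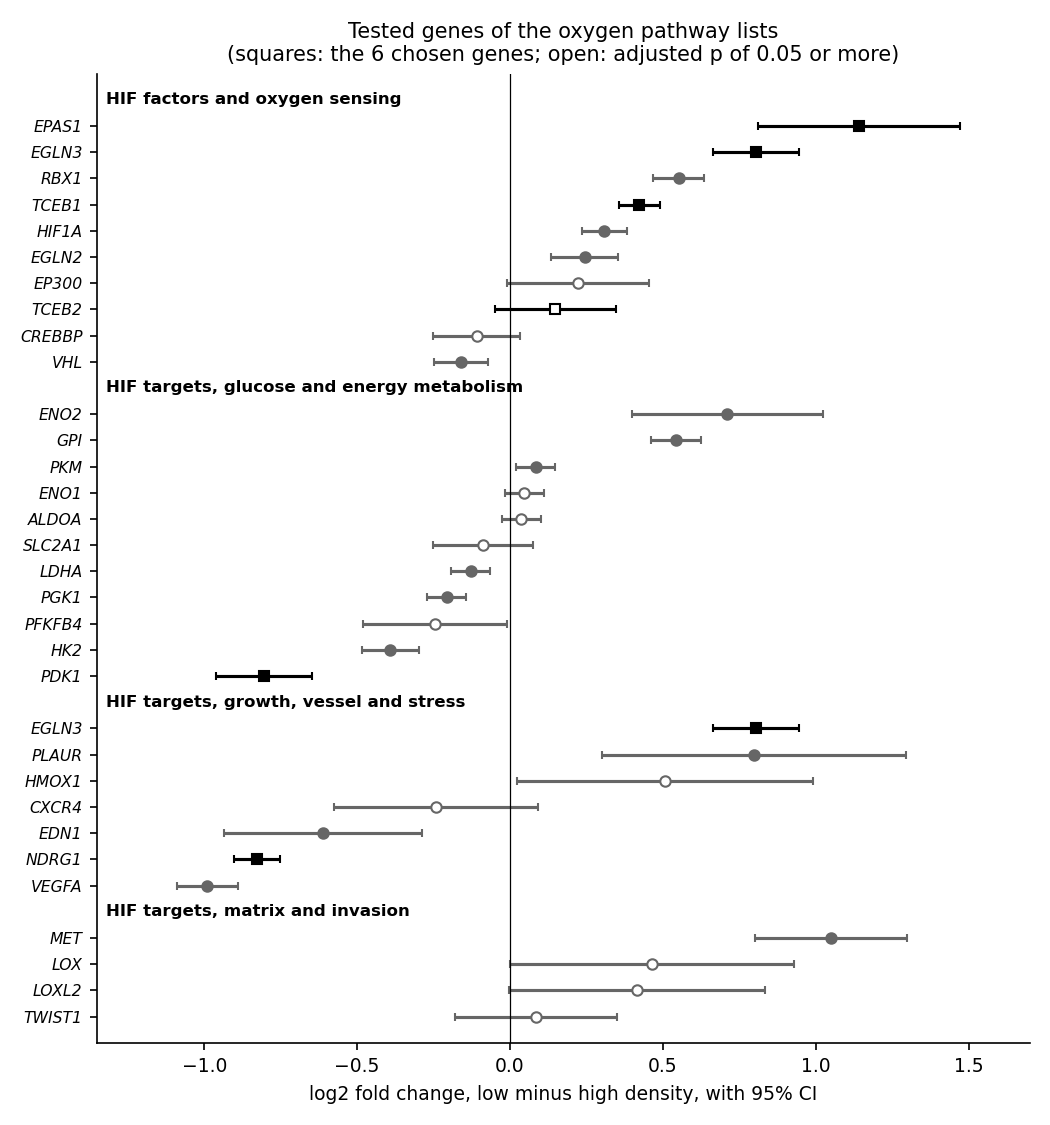
Log2 fold change, low minus high density, with the 95% confidence interval (horizontal axis), of the tested genes in 4 lists around HIF (rows; EGLN3 is in 2 lists). Squares mark the 6 chosen genes and open symbols an adjusted p of 0.05 or more. Most genes of HIF factors and oxygen sensing lie right of 0 (median 0.28, or 0.23 without the chosen genes). Metabolic targets spread from -0.80 (PDK1, a chosen gene) to 0.71 (ENO2).

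For each of the 6 genes, the 2 tested genes nearest in profile were found by the root mean square difference of log2 values over the 6 samples, after the mean of each gene was taken away. EPAS1 was nearest to AREG, a ligand of the EGF receptor (0.13, log2 fold change 1.15 ± 0.12), and FGFR4 (0.16). EGLN3 was nearest to NF2, which encodes merlin (0.07), and ADAMTS1 (0.07). TCEB1 was nearest to ADAM9 (0.03) and the ligand gene BMP7 (0.04), and TCEB2 to GALNT7 (0.02) and BMPR1A (0.03). PDK1 was nearest to FBP1, a gluconeogenic phosphatase (0.08, log2 fold change -0.75 ± 0.17), and PIK3R1, a subunit of phosphoinositide kinase (0.08, -0.79 ± 0.08). NDRG1 was nearest to EIF4EBP1, a repressor of cap-dependent translation (0.04, -0.86 ± 0.04), and the epithelial transcription factor ELF3 (0.06, -0.82 ± 0.04). These distances describe 6 samples that fall into 2 groups, so they rest mainly on the size of the density difference.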

How the data were processed

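NIH:OVCAR-3 cells from low (n = 3) and high (n = 3) density cultures were measured on an nCounter PanCancer Progression Panel. The authors deposited 1 table of 784 probes: 770 genes, 8 negative and 6 positive controls. The deposited gene values were a signal, barcode counts times 1 factor per sample that equalized the geometric mean of 30 reference genes. This was inferred from the values. The software was not given in the sources used here, and controls were whole, unscaled counts. Values under 100 counts were whole multiples of 1 step (tolerance 0.1) in 98.9% to 100% of genes, which gave recovered counts. Intervals rest on a spread between samples that was pooled over genes, not on the samples of each gene alone.

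Reference genes were left out, and the 480 of 740 other genes whose mean reached 20 were fitted as log2(value + 1) with limma 3.58.1 in R 4.3.3 (two-sided, mean trend). A scale on log2(value + 1) understates changes of weak genes. Spread was pooled over genes (457 prior degrees of freedom), and p-values lay far below those of the methods' t-test. The fit was run on simulated data to see whether known changes were recovered, which does not check the very small p-values. Alternatives were other filters, pseudocount, scalings and tests (edgeR 4.0.16 and DESeq2 1.42.0 on recovered counts; edgeR called 327 genes), leaving out single samples, and a block for the replicate number. Symbols matched RefSeq (755 current, 15 older). The 6 genes, the pathway lists and the tests were chosen with earlier results of these data known. Genes were named by a rule: the 6, HIF1A, ARNT, VHL, EGLN1, EGLN2, VEGFA, CA9, SLC2A1 and LDHA where measured, list genes past 0.05 with a log2 change of at least 0.5, and the 2 nearest profiles. CREBBP, EP300, HK2, PGK1, PKM, LOX, LOXL2, TWIST1 and the cell type markers were named after their values were seen. So were S1PR1, KDR, NOS3, EGFL7 and CALCRL. CA9 was not analysed here.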

Additional observations from a re-analysis of the deposited data

How the results depend on the processing

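Directions of the 6 genes and of the 8 within-sample ratios were the same under all alternatives run, and 318 genes changed with all samples, against 264 (methods' t-test) to 332 (no filter) otherwise and 293 to 316 with a sample left out. A minimum log2 change of 0.5 left 146 genes by construction. Low density replicates 1 and 2 averaged as 1 sample, chosen after seeing the data, gave 303. Rises and falls numbered 186 and 132, but 240 and 76 with scaling to the positive controls, 161 and 161 with median-of-ratios scaling, and 145 and 148 with quantile normalization. Positive control scaling shifted the median tested gene by 0.15 (log2); the cause was not tested. Under it TCEB2 passed (0.294), while SLC2A1 (0.0593) and LDHA (0.0180) lay above 0 without passing. SLC2A1 passed after quantile normalization (-0.22).

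Of the matrix and invasion targets, 1 changed, but 3 with scaling to the positive controls, and 2 with no filter, with the negative control mean subtracted and without a mean trend, and 1 to 2 with a sample left out (2 without the third low density or the third high density sample). With the replicate number as a block, 320 genes were called, 313 of them in common with the fit without it, and no call on the 6 genes changed. No pairing by number was seen, though 3 samples per group are too few to exclude it. Deviations of same-numbered samples correlated at 0.117, -0.111 and -0.0350, and not every sample correlated best with its own number. Depth limited EPAS1 most, at 25 to 36 counts per high density sample, and TCEB2, where a small rise could be missed.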
